A study of Mus musculus with 8 samples.

Results

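B cells are the antibody-forming lymphocytes of the adaptive immune system. In the healthy mouse heart they form a sizeable share of the leukocytes, most of them carried in and out with the blood and held for a time in the small vessels, with a smaller number in the tissue. They present antigen on MHC class II, respond to lymphotoxin, chemokine and interferon signals, and release cytokines of their own after injury. Type I and type II interferons act through surface receptors and the JAK kinases. These kinases activate transcription factors that switch on a large set of antiviral and antigen-presentation genes, including *Irf7* and *Irf9*, which encode factors of the response itself.

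The 1816 B cells described here were chosen by their own transcripts from 20159 barcodes of single-cell RNA sequencing of the mouse left ventricle. A barcode marks the RNA of a droplet, and a unique molecular identifier (UMI) marks each captured transcript. A barcode was taken as a B cell if it had at least 200 genes, at most 30% mitochondrial UMIs and at least 5 UMIs of *Cd79a* and *Cd79b* (the signalling chains of the B-cell receptor) and *Ms4a1* (CD20) together, with no more than 1 UMI of the CD3 genes of T cells. Barcodes with 0.1% or more of UMIs from the C1q genes of macrophages, 1% or more from the neutrophil genes *S100a8* and *S100a9*, or 0.15% or more from the fibroblast genes *Dcn* and *Col3a1* were left out. The levels of all genes named in this choice, those that set a limit included, are therefore a description.

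The study compared hearts after sham surgery with hearts after ischemia and reperfusion (IR), in which the left anterior descending coronary artery of male mice aged 10 to 12 weeks on a C57BL/6 background was tied for 30 min and then released. The sample titles name 4 samples IR0h and 4 samples IR6h, while the protocol in the labels and the methods place both sham and IR hearts 6 h after surgery, so IR0h is taken to be the sham group but the labels do not settle this. No genotype is given in the labels. Left ventricles of 3 hearts were pooled into a sample and dissociated with enzymes, and the protocol used here names no perfusion before dissociation, so B cells in the blood and B cells in the tissue cannot be told apart.

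The files hold 1 matrix per group in which no barcode names its sample, so each group was 1 library without replicates, and no difference between the libraries was tested. Intervals are exact 95% intervals that cover counting error only. The IR0h library held 58653308 UMIs in 11620 barcodes and the IR6h library 75033226 UMIs in 8539 barcodes. Of the barcodes, 30 sequences occur in both libraries, 3 of them among the IR0h B cells and 1 among the IR6h B cells. The 1132 IR0h B cells had a median of 2417 UMIs and 965 genes, and the 684 IR6h B cells a median of 3479 UMIs and 1292 genes.

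The chosen barcodes carried B-cell genes that the choice did not use. *Ly6d*, a surface protein of the B lineage, was at 2843 counts per 1000000 summed UMIs (CPM) in IR0h and at 880 in IR6h, against 5.78 and 1.15 in T cells chosen by the CD3 genes. *Pax5*, the transcription factor that holds B-cell identity, was at 259 and 324 CPM in the B cells and at 9.08 and 3.37 in all other barcodes. With each barcode thinned to 1000 UMIs, *Ebf1*, which acts with *Pax5*, had a UMI in 71.5% of IR0h B cells (interval 68.8 to 74.1%) and in 78.2% of IR6h B cells (74.9 to 81.3%), and in 2.83% of IR0h T cells, which should lack it. At the edge of the choice, 26 IR0h and 22 IR6h barcodes with 4 UMIs of the chosen genes were just outside, and 33 and 29 with 5 UMIs just inside. *Ly6d* had a UMI in 76.9% of the former and 87.9% of the latter in IR0h, and in 59.1% and 31.0% in IR6h.

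B cells made up 9.95% of the barcodes that passed the filter in IR0h (9.41 to 10.5%) and 8.28% in IR6h (7.70 to 8.90%). The direction of this difference rests on the filter: among barcodes with at most 2500 genes the shares were 10.6% and 13.3%. Barcodes above 2500 genes made up 14.1% of those that passed in IR0h and 40.9% in IR6h, but only 8.83% and 5.41% of the B cells. The ratio of B cells to T cells was 2.91 in IR0h (2.59 to 3.27) and 2.53 in IR6h (2.20 to 2.93), with 389 and 270 T cells, and these intervals overlap. A share of captured barcodes depends on every other cell type in the suspension and on dissociation, so it is not a number of B cells in the heart.

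Interferon-stimulated genes were lower in IR6h B cells. Of 23 listed genes, 22 had a mean of at least 20 CPM over both libraries and were compared. All 22 were lower in IR6h, 20 of them by at least 2-fold, with a median log2 ratio of -2.86. Over all 5174 genes compared, 155 were at least 2-fold lower in IR6h, which is 3.0%, 141 were at least 2-fold higher, which is 2.73%, and the median log2 ratio was 0.02.

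*Irf7*, the transcription factor that amplifies the interferon response, was at 348 CPM in IR0h B cells (330.4 to 366.0) and at 33.4 in IR6h B cells (27.1 to 40.6), a 10.4-fold difference. *Ifi27l2a*, the most abundant member of the list, was at 4033 CPM in IR0h and 385 in IR6h (log2 ratio -3.39, -3.48 to -3.30). *Bst2*, which encodes tetherin, a protein that holds budding virus at the cell surface, was at 680 and 83.6. These 3 genes lay about an order of magnitude apart between the libraries in the counts as deposited. Their counting intervals are far narrower than this but do not cover the spread between barcodes or hearts. With free RNA subtracted the log2 ratio of *Bst2* was -1.97 and that of *Ifi27l2a* -3.14.

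*Isg15*, a ubiquitin-like modifier, was at 269.7 CPM in IR0h and 31.7 in IR6h, with a log2 ratio of -1.22 when free RNA was subtracted. *Zbp1*, a sensor of left-handed nucleic acid that can start cell death, was at 221 and 23.6. *Ly6a*, which encodes the surface protein Sca-1, was at 1097 and 260.0. The list members *Ifit3* (log2 ratio -2.98), *Oasl2* (-3.32), *Rtp4* (-3.14), *Xaf1* (-3.21), *Usp18* (-2.64) and *Mx1* (-4.18) differed in the same direction, the last from 182 UMIs in IR0h to 7 in IR6h. The members below 2-fold were *Ifi203* at a log2 ratio of -0.99 and *Slfn2* at -0.36.

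**Figure D1:**
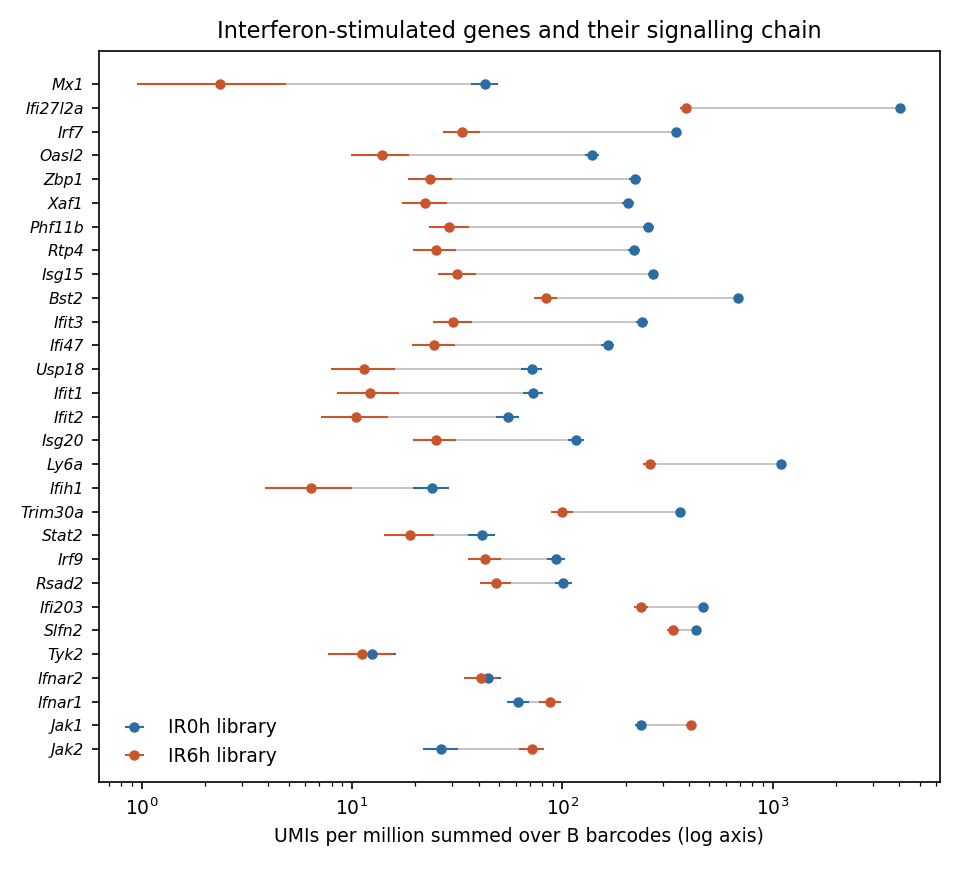
CPM summed over B barcodes (log axis) of most interferon-stimulated genes and of the genes of their signalling chain, in the IR0h and IR6h libraries; points are the 2 libraries and bars are exact 95% intervals of the count. The interferon-stimulated genes lie to the left in IR6h, *Irf7* from 348 to 33.4, as do *Stat2* and *Irf9*. *Ifnar1*, *Jak1* and *Jak2* lie to the right.

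The members that carry the signal were not lower throughout. Of 10 compared genes of interferon receptors and signalling, 6 were lower in IR6h, 4 of them by at least 2-fold. The other 4 were higher, 1 of them by at least 2-fold. The receptor chains *Ifnar1* and *Ifnar2* were at 61.7 and 44.4 CPM in IR0h and at 87.3 and 41.1 in IR6h. The kinases *Jak1* and *Jak2* were higher in IR6h, at log2 ratios of 0.80 (0.67 to 0.92) and 1.43 (1.09 to 1.77). *Stat2* and *Irf9*, which are themselves induced by interferon, were lower, at -1.13 and -1.12. *Ifnb1*, the gene of interferon beta, had 9 UMIs in IR0h and 2 in IR6h B cells, against 20.8 and 2.1 CPM in all other barcodes.

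Among the sensors of nucleic acid, *Tlr7*, the endosomal receptor of single-stranded RNA on B cells, was at 34.5 CPM in IR0h and 7.76 in IR6h. *Ddx58*, which encodes RIG-I, was at 102 and 36.8, and *Dhx58* at 49.3 and 11.1. *Tmem173*, which encodes STING, was at 40.6 and 40.8. Of the 5 sensor genes compared, 4 were at least 2-fold lower in IR6h. *Zbp1* is on both lists.

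The level of interferon-stimulated transcripts was also compared between single B cells. The 23 genes together gave a median of 93.9 UMIs per 10000 in IR0h B cells and 10.9 in IR6h B cells. The lower quartile of the IR0h B cells was 56.6, and 95% of the IR6h B cells were below 40.1. The distributions overlapped in their tails, since the highest IR6h B cell reached 222 and 13 IR0h B cells had none of these UMIs. IR0h B cells also spread widely, with 5% of them below 10.7 and 5% above 202. *Irf7* had a UMI in 562 of 1132 IR0h B cells, of which the 10 richest held 12.8% of its UMIs. In IR6h it had one in 55 of 684, and the 10 richest held 54.5%. Such a share also rises when fewer barcodes carry a gene.

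**Figure D2:**
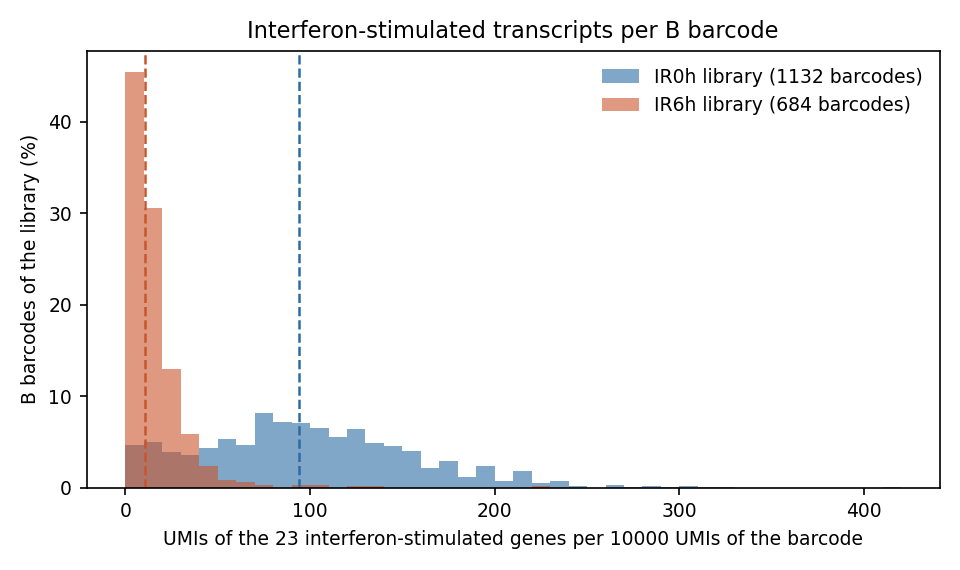
Histogram of the UMIs of the 23 interferon-stimulated genes per 10000 UMIs of a barcode (x axis) as a percentage of the library's B barcodes (y axis), for IR0h (1132 barcodes) and IR6h (684 barcodes); dashed lines are medians. The medians are 93.9 and 10.9, and the IR0h distribution has a tail of barcodes at the IR6h level.

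The difference was also there at equal depth. With each barcode thinned to 1000 UMIs, which left out 5 IR0h and 4 IR6h B cells, the mean number of UMIs of the list was 9.91 in IR0h and 1.48 in IR6h. *Irf7* then had a UMI in 23.6% of IR0h B cells (21.2 to 26.2%) and in 2.35% of IR6h B cells (1.35 to 3.79%), and without thinning in 49.6% and 8.04%. Across the 1127 thinned IR0h B cells, the summed UMIs of alternate members of the list rose and fell together between barcodes (Spearman's rho 0.50, with the library shared), while the rho was 0.16 across 680 IR6h B cells. After thinning, 227 of these IR6h B cells had no UMI of the list, against 39 in IR0h, so these values of rho cannot be compared directly.

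Interferon-stimulated transcripts were also abundant in the other barcodes of the IR0h library, at 12438 CPM for the whole list against 9981 in the B cells. In IR6h the list was at 3141 CPM in the other barcodes and at 1814 in the B cells, so the lower level was not particular to the B cells. Free RNA from these cells is counted in every barcode. With the library's own profile subtracted at the share that markers of neutrophils, red cells and cardiomyocytes gave in B cells (39.7% in IR0h and 14.8% in IR6h), the median log2 ratio of the list was -2.68, with 18 of 20 genes at least 2-fold lower. Over all other settings the count was 19 to 21 genes. The share subtracted is not a measured level of free RNA. Its markers included *S100a8* and *S100a9*, which the choice limits. They also included red-cell genes, at a summed level of 1775 CPM in IR0h B cells against 777 in the other barcodes. In IR6h these were at 2444 and 331 CPM. Ratios given here with free RNA subtracted hold for this share only.

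T cells and natural killer (NK) cells of the same libraries were set beside the B cells. In T cells, 16 of 20 compared members of the interferon-stimulated list were at least 2-fold lower in IR6h (median log2 ratio -2.32), where 3.49% of all 4673 genes compared were at least 2-fold lower and 4.81% at least 2-fold higher. In NK cells, of which there were 220 and 68, the median log2 ratio was -1.80. *Ifi27l2a* was at 2370 and 469 CPM in T cells and at 305 and 113 in NK cells. The list was thus lower in IR6h in all 3 lymphocyte groups, and whether the size differs between them was not tested.

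Promoter windows of list members are shown because interferon acts on such genes through the interferon-stimulated response element. The windows were taken from RefSeq (GRCm38.p6, the assembly of mm10), 250 bases before to 50 after the start of a gene, and searched on both strands for the core GAAANNGAAA, in which matches may overlap. The core was in 3.44% of 32851 windows. Of the 22 list members compared, 15 had a window and 8 of these held the core (53.3%), against 179 of 4061 genes compared with a window (4.41%). It was in 30 of 119 genes at least 2-fold lower in IR6h with a window (25.2%) and in 6 of 109 at least 2-fold higher (5.50%). Outside the list it was in 23 of 106 genes at least 2-fold lower (21.7%). Genes outside the list that were at least 2-fold lower include *Stat2* and *Irf9*, which interferon also induces. The lower and higher sets were picked by the ratios of these same data, so their shares are a description and no enrichment was tested. The stretches below hold the core, in capitals on either strand, for the 6 list members with a core before the start and the highest IR0h levels. They lie at chr8:71537552-71537631 (minus strand, *Bst2*), chr1:173942493-173942562 (minus, *Ifi203*), chr7:104465194-104465264 (minus, *Trim30a*), chr4:156200840-156200919 (minus, *Isg15*), chr14:59341336-59341415 (minus, *Phf11b*) and chr19:34583372-34583451 (plus, *Ifit3*), and are read in the direction of the gene.
Bst2: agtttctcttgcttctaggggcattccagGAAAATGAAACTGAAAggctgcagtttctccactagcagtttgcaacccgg
Ifi203: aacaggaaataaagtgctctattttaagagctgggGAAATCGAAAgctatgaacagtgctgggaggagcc
Trim30a: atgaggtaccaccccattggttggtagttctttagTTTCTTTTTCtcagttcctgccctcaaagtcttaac
Isg15: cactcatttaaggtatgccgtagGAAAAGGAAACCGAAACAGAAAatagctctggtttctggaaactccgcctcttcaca
Phf11b: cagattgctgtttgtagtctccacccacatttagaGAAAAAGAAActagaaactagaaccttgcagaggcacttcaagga
Ifit3: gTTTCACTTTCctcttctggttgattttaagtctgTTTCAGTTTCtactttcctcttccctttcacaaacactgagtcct

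The stretch of *Isg15* holds 3 cores, those of *Bst2* and *Ifit3* hold 2 each, and those of *Ifi203*, *Trim30a* and *Phf11b* hold 1 each. A match is a description of letters and not evidence of a bound factor.

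Genes of MHC class I presentation, many of which interferon also raises, were lower in IR6h B cells. All 11 compared members were lower and 6 were at least 2-fold lower, with a median log2 ratio of -1.12. This list and the lists of interferon signalling and sensor genes were drawn up after the values had been seen. *H2-T23*, which encodes the nonclassical molecule Qa-1, was at 854 CPM in IR0h and 227 in IR6h. The classical *H2-K1* was at 2601 and 1199.7 (log2 ratio -1.12, -1.17 to -1.06), *Tap1*, a peptide transporter, at 179 and 70.8, and *Psmb9*, a subunit of the immunoproteasome, at 276 and 89.4. *B2m*, the shared light chain, was at 2101 and 1334. In T cells the list had a median log2 ratio of -0.54, with 2 of 12 genes at least 2-fold lower.

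Genes of MHC class II presentation and costimulation were lower by less. Of 14 compared, 13 were lower and none passed 2-fold, with a median log2 ratio of -0.62. The lower level was not particular to the B cells, since the list was at 17103.5 and 4507 CPM in the other barcodes. Its median log2 ratio was -0.40 in T cells and -1.71 in NK cells, over 8 genes compared in each. *Cd74*, the invariant chain, was at 14325 CPM in IR0h and 9554 in IR6h. *H2-Aa* was at 4066 and 2994, and *H2-DMb2*, which helps to load peptides, at 529 and 270. *Cd86*, a ligand for T-cell costimulation, was at 105 and 157 (log2 ratio 0.59, 0.40 to 0.78).

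B-cell identity genes that were not used in the choice differed from each other. Of 21 compared, 2 were at least 2-fold lower in IR6h, none was 2-fold higher, and the median log2 ratio was -0.30. *Ly6d* differed most, at a log2 ratio of -1.69 (-1.75 to -1.63). With barcodes thinned to 1000 UMIs it had a UMI in 85.4% of IR0h B cells (83.2 to 87.4%) and in 45.0% of IR6h B cells (41.2 to 48.8%), against 1.03% and 0.37% of T cells. *Ly6d*, *Ly6a* and *Ly6c2* lie near each other on chromosome 15 (mm10, for *Ly6d* chr15:74762056-74763620). *Ly6c2* was at 672 CPM in 290 IR0h B cells and at 24.6 in 22 IR6h B cells.

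*Spib*, a transcription factor of B-cell receptor responses, was at 197 CPM in IR0h and 85.6 in IR6h. *Vpreb3*, a gene of the B lineage, was at 302 and 162, and *Fcmr*, the receptor for IgM, at 940 and 518. *Bank1* was at 452 and 482, and *Bach2* at 197 and 196. *Pou2af1*, a coactivator of immunoglobulin transcription, was at 254 and 334, and *Ebf1* at 1296 and 1545. *Spib* had a log2 ratio of -0.82 when barcodes were thinned to 1000 UMIs, within 2-fold. *Ly6d* and *Spib* were thus lower by at least 2-fold in the counts as deposited and *Fcmr* and *Vpreb3* by less, while the factors *Pax5*, *Ebf1* and *Pou2af1* were higher by less than 2-fold. The genes of the choice, given as a description, were at 3097 and 2051 for *Cd79a*, 1735 and 1079 for *Cd79b*, and 725 and 416 for *Ms4a1*.

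**Figure D3:**
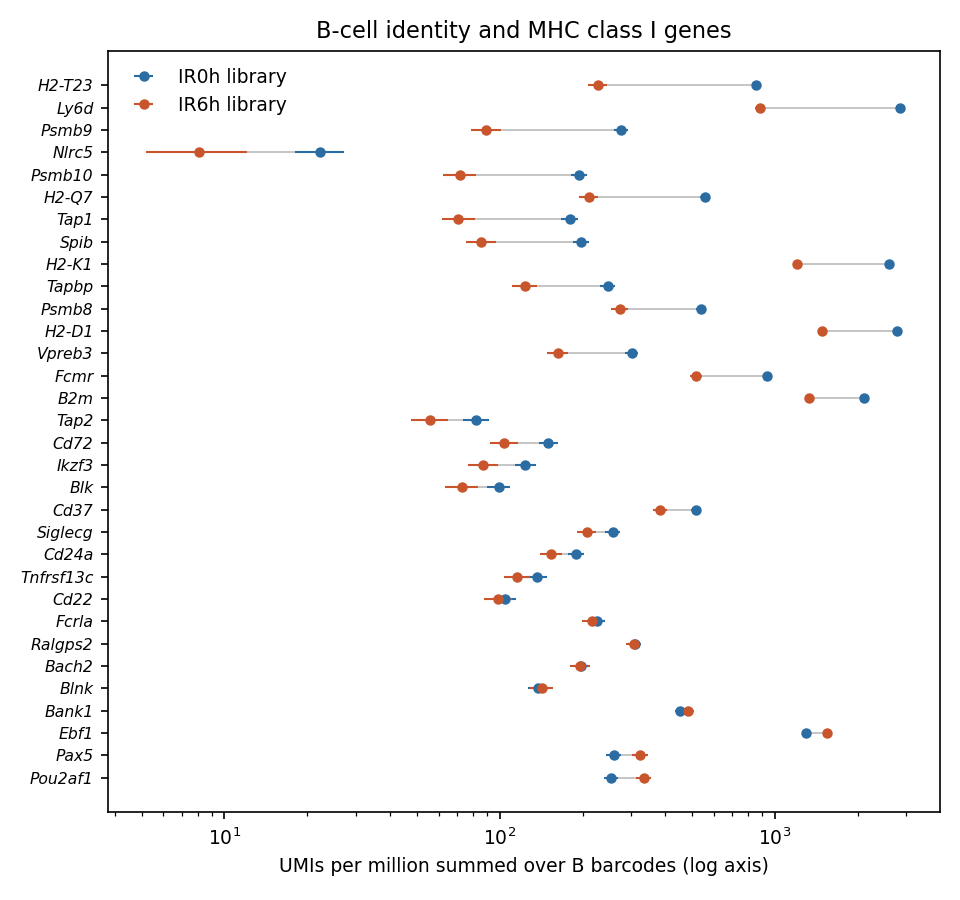
CPM summed over B barcodes (log axis) of most B-cell identity genes and of MHC class I genes in the IR0h and IR6h libraries, ordered by their ratio; points are the 2 libraries and bars are exact 95% intervals of the count. *H2-T23* and *Ly6d* lie farthest apart, and *Bach2* and *Ralgps2* overlap between the libraries.

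Genes of subset and location mostly stayed within 2-fold. The follicular list, which marks recirculating mature B cells, had a median log2 ratio of 0.06 over 7 genes, none past 2-fold: *Ccr7* was at 653 CPM in IR0h and 724 in IR6h, and *Cxcr5* at 87.1 and 105. *Fcer2a*, which encodes CD23, was at 269 and 149. Of the marginal zone genes, *Cr2* was at 42.5 and 43.5 and *Cd1d1* at 14.6 and 15.2. Of 8 transitional and precursor genes only 2 were compared, *Cd93* (24.9 and 42.8) and *Il7r*, which was at least 2-fold higher (7.28 and 39.5). *Cd5*, a marker of B-1a cells, had 5 UMIs in each library. Of 18 trafficking genes compared, 1 was at least 2-fold higher in IR6h, *Cd44* (log2 ratio 1.07, 0.85 to 1.30), an adhesion receptor that the other IR6h barcodes hold at 788 CPM against 139 in the B cells. With free RNA subtracted the ratio of *Cd44* was -0.26. *Klf2*, a factor that keeps lymphocytes in circulation, was at 1834 and 934, with a log2 ratio of -0.97 that passed 2-fold (-1.11) with at most 10% mitochondrial UMIs, and *Cxcr4* at 404 and 445.

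Nearly all *Jchain* UMIs came from a pair of barcodes. *Jchain*, the joining chain of secreted IgM and IgA, had no UMI in IR0h B cells and 598 in IR6h B cells, of which 502 were in 1 barcode and 93 in another. The first of these also held 199 UMIs of *Mzb1* and 24 of *Mki67*, and the second 36 and 29. *Mki67*, a gene of dividing cells, had a UMI in 7 IR0h and 4 IR6h B cells. *Mzb1* was carried widely, in 705 IR0h and 458 IR6h B cells, at 397 and 414 CPM. Immunoglobulin heavy and light chain genes were not analysed here.

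Of 21 genes of B-cell receptor signalling, 2 were at least 2-fold higher in IR6h and 1 was at least 2-fold lower, with a median log2 ratio of 0.01. *Ptpn6*, the phosphatase SHP-1 that restrains the receptor, was at 323 CPM in IR0h and 128 in IR6h. *Malt1*, a protease between the receptor and NF-kB, was at 43.0 and 91.4, and the inhibitory Fc receptor *Fcgr2b* at 59.9 and 127. Both fell within 2-fold under an alternative, *Malt1* at a log2 ratio of 0.73 with free RNA subtracted and *Fcgr2b* at 0.77 with barcodes thinned to 1000 UMIs. The kinases *Lyn* (197 and 198), *Syk* (322 and 401) and *Btk* (59.9 and 75.9) and the adaptor *Blnk* (138 and 142) were closer between the libraries.

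In the NF-kB and tumor necrosis factor (TNF) family, 2 of 18 genes were at least 2-fold higher, 1 was at least 2-fold lower and the median log2 ratio was -0.05. *Ltb*, the lymphotoxin beta chain with which B cells maintain lymphoid stroma, was at 725 CPM in IR0h and 317 in IR6h (log2 ratio -1.19, -1.30 to -1.09), and was lower in T cells too (518 and 311). *Icam1* and *Tnf* were higher at log2 ratios of 1.5 and 1.14, from 68 and 66 UMIs in IR0h, and the 10 richest barcodes held 56.7% and 60.4% of their IR6h UMIs. Their log2 ratios fell within 2-fold at 0.63 for *Icam1* without the deepest barcodes and at 0.52 for *Tnf* with B cells chosen by share of UMIs. *Rel*, the subunit most used by B cells, was at 476 and 430.3.

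Immediate early and activation genes, which dissociation of tissue also raises, had a median log2 ratio of -0.28 over 19 genes, with none past 2-fold. With free RNA subtracted this median was 0.84, so its direction rests on the processing. *Fos* was at 551 CPM in IR0h and 309.5 in IR6h, *Junb* at 1977 and 2220, *Cd69* at 226 and 209, and *Cd83* at 366 and 521. *Atf3*, the stress-response transcription factor at the center of the study, was at 97.9 and 64.7 in B cells and at 635.5 and 430.5 in all other barcodes. The direction in B cells rests on the processing. The log2 ratio was -1.15 with B cells chosen by share of UMIs and 1.72 with free RNA subtracted. Of 417 *Atf3* UMIs in IR0h B cells, 36.0% were in the 10 richest barcodes, and of 192 in IR6h 56.3%.

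Heat shock genes went in both directions: of 11 compared, *Hsph1* and *Hsp90ab1* were at least 2-fold lower (log2 ratios -1.55 and -1.08) and *Hspa1a* and *Hspa1b* at least 2-fold higher (1.41 and 1.79). With B cells chosen by share of UMIs the ratios of *Hspa1a* and *Hspa1b* were 0.84 and 0.83, and with free RNA subtracted that of *Hsp90ab1* was -0.94. Of the glucocorticoid response list, 2 of 12 were at least 2-fold higher, the metallothioneins *Mt1* and *Mt2* (1.08 and 2.83), which were at 4.39% and 3.35% of the level in the other IR6h barcodes, while *Tsc22d3*, the most abundant member, was at 958 and 741 CPM. Of 9 genes of the BCL2 family and apoptosome, 1 passed 2-fold, *Bcl2l11*, which encodes the death-promoting protein BIM (35.2 and 105; log2 ratio 1.57, 1.29 to 1.87). The survival genes *Bcl2* (100.5 and 99.5) and *Mcl1* (509 and 713) did not. The 7 glycolysis and hypoxia genes compared had a median log2 ratio of 0.00, none past 2-fold.

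Mitochondrial transcripts were higher in IR6h B cells. All 13 genes were higher, 7 of them at least 2-fold, with a median log2 ratio of 1.04. The median share of mitochondrial UMIs was 5.0% in IR0h B cells (5% of cells above 9.89%) and 8.82% in IR6h B cells (5% above 16.9%), and 4.32% and 7.04% in T cells. The ratios differed between the genes: *mt-Nd2* and *mt-Atp6*, encoding subunits of complex I and of ATP synthase, had log2 ratios of 1.76 and 1.57, whereas *mt-Co1* and *mt-Co3*, subunits of cytochrome c oxidase, had 0.42 and 0.40. *Gm42418* and *AY036118*, transcripts that overlap ribosomal RNA repeats, were at log2 ratios of 2.02 and 2.24 in B cells and 2.32 and 2.56 in T cells. The 86 ribosomal protein genes compared had a median log2 ratio of 0.01. The part of RNA quality in these differences was not tested.

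**Figure D4:**
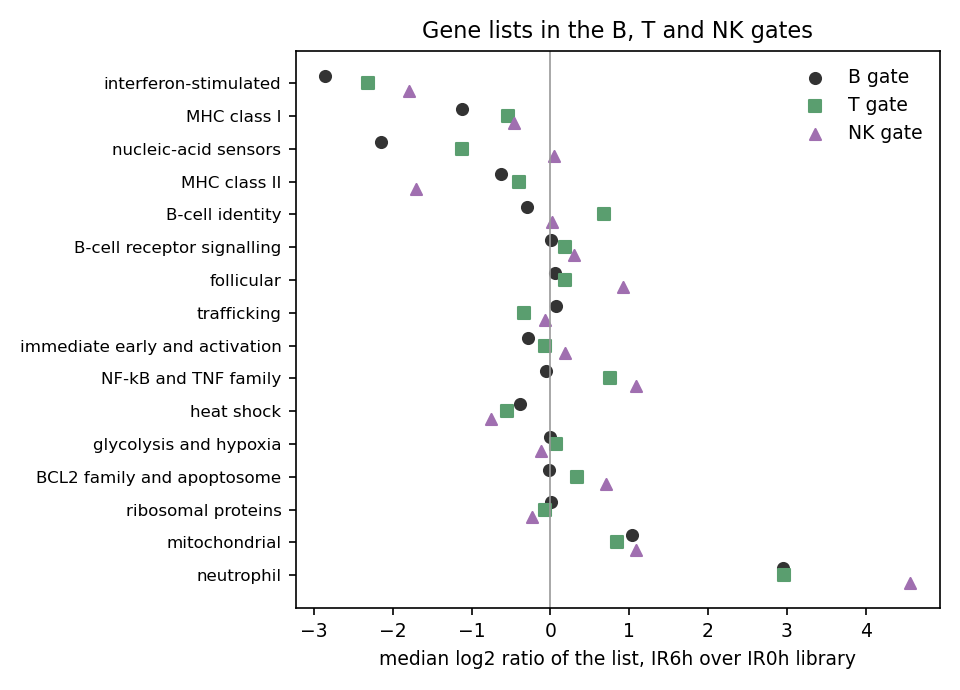
Median log2 ratio of IR6h over IR0h (x axis) for a selection of the gene lists, each with at least 3 genes compared in each cell type, in B, T and NK cells. The interferon-stimulated list lies at -2.86, -2.32 and -1.80, the mitochondrial list near 1 in all 3, and the neutrophil list at 2.95, 2.96 and 4.57.

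Some of the genes higher in IR6h B cells were far higher in the other barcodes. Of 141 genes, 24 were at under 10% of their level in the other barcodes, such as *Cxcl2*, a neutrophil attractant (119.7 and 1277 CPM in B cells, 9.43% of the level in other IR6h barcodes), *Ccl2* (40.1 and 315, 6.07%) and *Retnlg* (5.63 and 60.0, 3.41%). *Cxcl3* had 1 UMI in IR0h and 531 in IR6h (log2 ratio 9.58, 7.09 to 14.9). Of 155 genes lower in IR6h, 1 was at under 10%, *C1qb* (1.61%), which the choice limits. All 5 neutrophil list genes compared were higher in IR6h B cells, 2 of them, *S100a8* and *S100a9*, held under a limit by the choice of B and T cells. The summed level of the list was 257 and 1737 CPM, and in the other barcodes it was 3792 and 31635. At 1000 UMIs per barcode *Cxcl2* had a UMI in 6.03% and 37.4% of B cells and in 4.11% and 35.2% of T cells. The UMIs were uneven: of 3786 in IR6h B cells, 814 were in 1 barcode, and the 10 richest held 63.9%. The part of free RNA and of doublets in these levels was not tested. The macrophage list, whose C1q genes the choice limits, went the other way, at 2603 and 2164 CPM. It was at 25869 and 11094 CPM in the other barcodes. *Lyz2* was at 1595 and 671 in the B cells, of which the 10 richest barcodes held 44.8% and 77.4%.

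The 12 highest ratios among genes at 10% or more of the level in the other barcodes were *Jchain*, *Arg1*, *Ccl24*, *Ptgs2*, *Il1rn*, *Cd300lf*, *Spp1*, *Adam8*, *Ccr1*, *Basp1*, *Il1b* and *Nlrp3*. For 11 of these, over 50% of the IR6h UMIs were in 10 barcodes, and for *Cd300lf* 50%. Of 161 *Arg1* UMIs, 153 were in 1 barcode. *Il1b*, the precursor of interleukin-1 beta, was at 139 and 892 CPM, with 64.6% of its IR6h UMIs in 10 barcodes. Leaving out barcodes with more than 0.2% of UMIs from the neutrophil and macrophage lists (*Apoe* not counted) gave 105 genes at least 2-fold higher and 140 lower.

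The 12 lowest were *Ccl5*, *Igfbp5*, *Gzma*, *Nkg7*, *Ly6c2*, *Oas3*, *Mx1*, *Tppp3*, *Ifi27l2a*, *Irf7*, *Ifit3b* and *Rgs5*. For *Ccl5*, *Gzma* and *Nkg7*, genes of cytotoxic lymphocytes, 82.5%, 97.8% and 83.8% of the IR0h UMIs were in 10 barcodes, and for *Igfbp5* and *Rgs5*, genes of vessel wall and other stromal cells, 99.1% and 84.9%. *Oas3*, *Mx1*, *Ifi27l2a*, *Irf7* and *Ifit3b* were broadly carried, with 6.30 to 17.5% in 10 barcodes. *Nkg7* had 204 UMIs in IR0h and none in IR6h, where the floor of 3 UMIs makes it at least 47.3-fold lower. Of the lower genes 11 of 155, and of the higher genes 53 of 141, had over 50% of their UMIs in 10 barcodes.

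**Figure D5:**
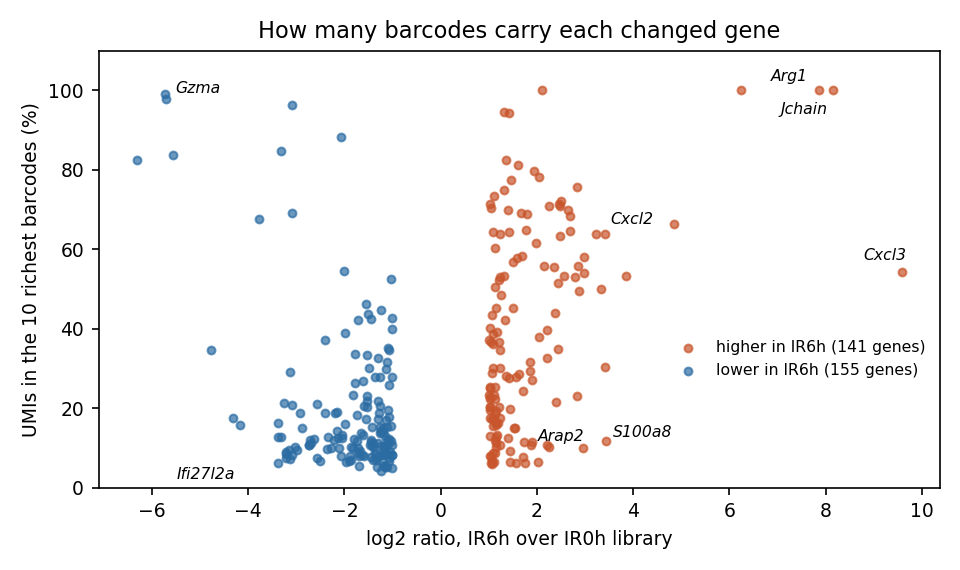
Percentage of a gene's B-cell UMIs held by its 10 richest barcodes (y axis), in the library where the gene is higher, against the log2 ratio of IR6h over IR0h (x axis), for the 141 genes at least 2-fold higher and the 155 at least 2-fold lower. *Jchain* and *Arg1* stand at 100%, *Cxcl2* at 63.9%, *Arap2* at 10.7% and *Ifi27l2a* at 6.30%.

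Genes that B cells hold at 5 times the level of the other barcodes or more were then taken apart, by a limit set after the values had been seen and applied in the library where the gene was higher. A gene could thus pass through that library alone, as did *Arap2*, at 59.2 CPM against 19.6 in the other barcodes of IR0h and 217 against 21.1 in IR6h. Over all 5174 genes compared, 141 were at least 2-fold higher in IR6h and 155 at least 2-fold lower. The 233 genes that passed the limit of 5 times were not tested against these counts. Of these 233, 11 were at least 2-fold higher and 10 at least 2-fold lower in IR6h. Among the higher were *Arap2*, a GTPase regulator (in 196 and 316 barcodes; log2 ratio 1.87, 1.66 to 2.09), *Eif2ak3*, which encodes the stress kinase PERK (27.7 and 80.3), *Stat4* (64.3 and 140), *Satb1*, a chromatin organizer (340.4 and 717), *P2ry10*, a lysophospholipid receptor (119 and 254), and *Pde2a* (25.6 and 59.7). The 10 richest barcodes held 5.97 to 17.5% of their IR6h UMIs. With free RNA subtracted *Stat4* (log2 ratio 0.84), *Satb1* (0.78) and *P2ry10* (0.78) were within 2-fold, as was *Pde2a* (0.85) with barcodes thinned to 1000 UMIs, while *Arap2* and *Eif2ak3* stayed past it in all alternatives run for them. For *Jchain* and the cell cycle gene *Ube2c*, which are also among the 11, the share was 100%, and 4 IR6h barcodes carried *Ube2c*.

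In T cells the log2 ratio was -0.01 for *Arap2* and 0.93 for *Satb1*, and the difference between B and T cells was not tested. The lower genes were *BC094916* (log2 ratio -1.88), *Ly6d*, *Rnase6* (-1.41), *AC125149.3* (-1.36), *Il4i1* (-1.36), *Spib*, *Ltb*, *Pkib* (-1.18), *A530040E14Rik* (-1.02) and *Ptprcap* (-1.01). Of these, *Pkib* (-0.81) and *Spib* were within 2-fold when thinned, and *A530040E14Rik* (-0.91) and *Ptprcap* (-0.90) with a total without ribosomal and mitochondrial genes. *Il7r*, a receptor of early B cells and of T cells, had 31 UMIs in 20 IR0h B cells and 117 UMIs in 66 IR6h B cells, against 501 and 739 CPM in T cells, and *Rag1* had 4 and 1 UMIs.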

How the data were processed

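Single-cell RNA sequencing data of left ventricular cells labelled IR0h and IR6h were used. Raw UMI counts were deposited, made by the authors with Cell Ranger (version 3.1.0 per the file headers) on mm10 per gene and barcode, as 1 matrix of called barcodes for each group, with the 4 labelled samples of a group pooled and no map from barcodes to samples. All value columns of the files were used. The members, gene lists and tests were chosen with earlier results of these data known.

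B cells were chosen by the limits given in the report, T cells by at least 3 CD3 UMIs and at most 1 B-cell UMI, and NK cells by at least 3 UMIs of *Ncr1*, *Klrb1c* and *Gzma* with at most 1 CD3 and 1 B-cell UMI, under the same limits on other cell types. No doublet caller was run, and immunoglobulin constant region genes were not analysed here. The values of some list members are not reported here. UMIs were summed over barcodes of a type and divided by their total (CPM). Genes with a mean CPM of at least 20 over the libraries were compared by the log2 ratio, with a count of 0 set to 3 UMIs, and a ratio of 2-fold was used as the limit. With 1 library per group no test across samples could be run. Intervals are exact Poisson, conditional binomial or Clopper-Pearson 95% intervals and cover counting error only. The precision is set by 4260322 UMIs in IR0h and 2965712 UMIs in IR6h B cells.

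Named genes were the markers of the choice, list members past 2-fold or with the highest level, the 12 highest and 12 lowest ratios among genes at 10% or more of the level in the other barcodes, at most 5 each way below it, and *Atf3*; other named genes are list members given for comparison or B-cell-weighted genes chosen after the values were seen. Alternatives were other gates, filters, scalings and a subtraction of free RNA. The ratio and its interval were tested on simulated Poisson counts of summed UMIs. These hold no clustering of UMIs in barcodes and no spread between hearts, so they check the calculation only. Python 3.11.15, numpy 2.4.6, scipy 1.17.1, pandas 2.3.3 and matplotlib 3.10.9 were used.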

Additional observations from a re-analysis of the deposited data

How the results depend on the processing

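No paired analysis was possible because each group was 1 pooled library, and no replicate could be left out. Alternatives that leave out immunoglobulin genes or use the kappa share were not run. Where the text gives no cause for a change below, the cause was not tested. The B-cell share moved from 9.95% in IR0h and 8.28% in IR6h to 10.6% and 13.3% with at most 2500 genes per barcode, which turns its direction, and to 7.42% and 5.8% with at least 10 UMIs of the chosen genes. It was 8.66% in IR0h with stricter limits on other cell types, and in IR6h 7.52% when chosen by share of UMIs, 6.13% with at most 10% mitochondrial UMIs and 6.65% without barcodes rich in myeloid UMIs. The ratio of B to T cells was 2.17 and 1.77 with at least 10 UMIs, and 1.95 in IR6h with at most 10% mitochondrial UMIs.

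The median log2 ratio of the interferon-stimulated list was -3.29 with at most 2500 genes, -3.35 with at least 10 UMIs, -3.46 when chosen by share, -3.31 without the deepest barcodes, -3.31 with each barcode weighted alike and -4.14 without the 2% of barcodes richest in each gene. In these and the other alternatives run, 18 to 21 of the genes were at least 2-fold lower. The mitochondrial median was 0.93 with at most 2500 genes, 1.09 with at least 10 UMIs, 0.73 with at most 10% mitochondrial UMIs, 0.85 with barcodes weighted alike, 0.77 when thinned and 1.08 with free RNA subtracted, and the B-cell identity median was -0.58 with free RNA subtracted.

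Genes at least 2-fold higher numbered 242 with a total without ribosomal and mitochondrial genes, 241 when thinned, 316 with free RNA subtracted, and 361 and 2238 with a minimum of 5 CPM and no minimum, where 363 and 1765 were lower. The share of barcodes with a *Ly6d* UMI was 67.8% and 29.2% at 500 UMIs and 95.2% and 73.8% without thinning, and for *Irf7* 13.2% and 1.02%, and 49.6% and 8.04%. Among the genes past 2-fold that were followed, the sign turned for *Jchain* (-0.24 with at most 2500 genes, -0.073 without the deepest barcodes) and *Ube2c* (-0.40, -2.15, and -0.69 when thinned). It also turned for *Cd44* with free RNA subtracted (-0.26). That subtraction turned the sign of *Atf3* (1.72) and *Pax5* (-0.015) as well, which were within 2-fold. List medians that it turned include those of immediate early genes (0.84), macrophage genes (7.58), cytokines and chemokines (-0.51) and follicular genes (-0.28). The alternatives that leave out barcodes rich in myeloid UMIs or in a gene, or that set the limit on *S100a8* and *S100a9* to 4%, were chosen after seeing the data.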

Other observations

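Among genes outside the lists, chosen here after their values were seen, some signalling regulators were higher in IR6h B cells. *Crem*, a transcription factor of the cyclic AMP response, was at 46.9 CPM in IR0h and 174 in IR6h, and *Irs2*, an adaptor of the insulin and growth factor receptors, at 75.6 and 205. With barcodes thinned to 1000 UMIs, *Crem* had a UMI in 4.88% of IR0h B cells (3.70 to 6.31%) and in 13.4% of IR6h B cells (10.9 to 16.2%), against 2.31% and 7.41% of T cells. *Irs2* had one in 7.45% (5.99 to 9.14%) and 18.2% (15.4 to 21.3%) of B cells, against 1.54% and 2.22% of T cells. *Arap2* had one in 6.39% and 18.2% of B cells and in 5.91% and 9.26% of T cells. Whether B and T cells differ in these changes was not tested, and with 1 library per group the spread between hearts is not known.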
